A study of Mus musculus with 6 samples.

Results

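The 41 genes described here make the proteins that copy DNA: they recognise and license origins, open the double helix, synthesise the new strands, hold and join them, and supply the deoxynucleotides. They were chosen by symbol for these known roles, with earlier results of these data known. All 41 were found among 57170 gene identifiers, and all 41 passed the filter on low counts, which left 17707 genes for testing. The libraries came from polyadenylated RNA of whole mouse testis on postnatal day 5. There were 2 wild-type libraries (WT) and 4 libraries labelled sKO, a conditional knockout of Mdm2 in germ cells that have not entered meiosis. The product of Mdm2 is a ubiquitin ligase that targets the tumour suppressor p53 for degradation. The Cre driver, the strain and the deleted exons were not stated in the labels. Nor do they say whether each library came from its own animal, so the p-values here reflect how far these libraries scatter, which may be partly technical. In whole tissue, fewer cells of a type and less RNA per cell cannot be told apart.

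DNA replication starts at origins. The origin recognition complex, CDC6 and CDT1 load rings of the MCM2 to MCM7 helicase in G1, and geminin blocks a second loading. In S phase the kinase CDC7 with DBF4, together with cyclin-dependent kinases, lets CDC45 and the GINS complex join MCM to form the active helicase. DNA polymerase alpha with primase lays down primers, polymerase epsilon and polymerase delta extend them on the leading and the lagging strand, and RPA, PCNA, the RFC clamp loader, FEN1 and DNA ligase 1 serve the fork. Many of these genes are transcribed before S phase under E2F factors, so their RNA is widely used as a sign of dividing cells. In the early postnatal testis Sertoli cells, other somatic cells and spermatogonia all divide.

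The libraries held 17.99 to 18.4 M (mega) expected counts each. The first principal component of log2 CPM (counts scaled to a common library total), which held 38.1% of the variance, put sKO-1, sKO-2 and WT-1 on one side and sKO-3, sKO-4 and WT-2 on the other, and no label accounts for these 2 library subsets. Results are therefore also given with the subset as a term in the model. The subsets were drawn from these same expression values, so adjusted p-values with that term may be too small. Calls made with it are a description and not independent support for the calls made without it. Mdm2 RNA itself was 67.2 and 75.9 CPM in WT and 37.6, 47.3, 41.8 and 45.1 CPM in sKO, all 4 below both WT values, and it fell from 71.6 ± 6.19 (SD, n = 2) to 42.95 ± 4.24 CPM (SD, n = 4), a log2 fold change of −0.74 (adjusted p = 0.0241, SE 0.11). The call was lost without WT-1, WT-2, sKO-2 or sKO-3 (adjusted p up to 0.171). The labels place the knockout in germ cells, and whole testis also holds somatic cells.

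Replication transcripts lay lower in sKO testes, by a modest amount that differed from gene to gene. The summed level of the 41 genes was 3211 and 3141 CPM in WT and 2275, 2606, 2497 and 2689.7 CPM in sKO-1 to sKO-4, so that no sKO library reached either WT library, and the sKO mean differed from the WT mean by −20.7%. In edgeR's quasi-likelihood test with Benjamini-Hochberg adjustment over all 17707 genes, 4 of the 41 fell (Orc1, Mcm7, Pold1 and Rpa2) where 2.3% of all genes tested were lower. None rose, where 0.124% of all genes did. The count was also 0 in DESeq2 and limma-voom, where 0.407% and 0.102% of all genes were higher. At shares this small a count of 0 would be usual for any 41 genes, so it says little about the members. At an unadjusted p under 0.05 in edgeR, 22 members were lower against 8.91% of all genes, and 0 were higher against 4.17%. The log2 fold change was negative for 39 of the 41, against 44.7% of all genes, and its median was −0.33 against 0.03 over all genes tested. It ran from −1.0 (Orc1) to 0.03 (Pold2). Pole2 and Pold2 were the 2 positive members. Both turned negative when libraries were scaled to Sertoli cell markers (−0.09 and −0.08), a scaling that moved the median of all genes by −0.12. All 41 members were also negative when WT-1 or sKO-4 was left out.

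All 4 sKO libraries lay below both WT libraries for 25 of the 41 members, where 13.3% of all genes showed this, and above both for 0 members, where 9.79% of all genes did. With the library subset as a term, 24 members were lower against 8.65% of all genes, and 0 were higher against 4.97% of all genes. Within the subsets the median over members was −0.38 (WT-1 with sKO-1 and sKO-2) and −0.24 (WT-2 with sKO-3 and sKO-4). Without that term, leaving out any single library left 0 members past the threshold in edgeR, with a smallest member adjusted p of 0.0547 (without sKO-4) to 0.295 (without WT-1), while 14 to 22 members were lower at an unadjusted p under 0.05, against 5.7% to 9.1% of all genes in the same fits. At that p 0 members were higher in those 6 fits, against 2.39% to 4.25% of all genes. DESeq2 called 9 members lower, against 3.25% of the 19909 genes it gave an adjusted p, adding Mcm3, Cdc45, Pole, Fen1 and Lig1 to the 4.

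**Figure D1:**
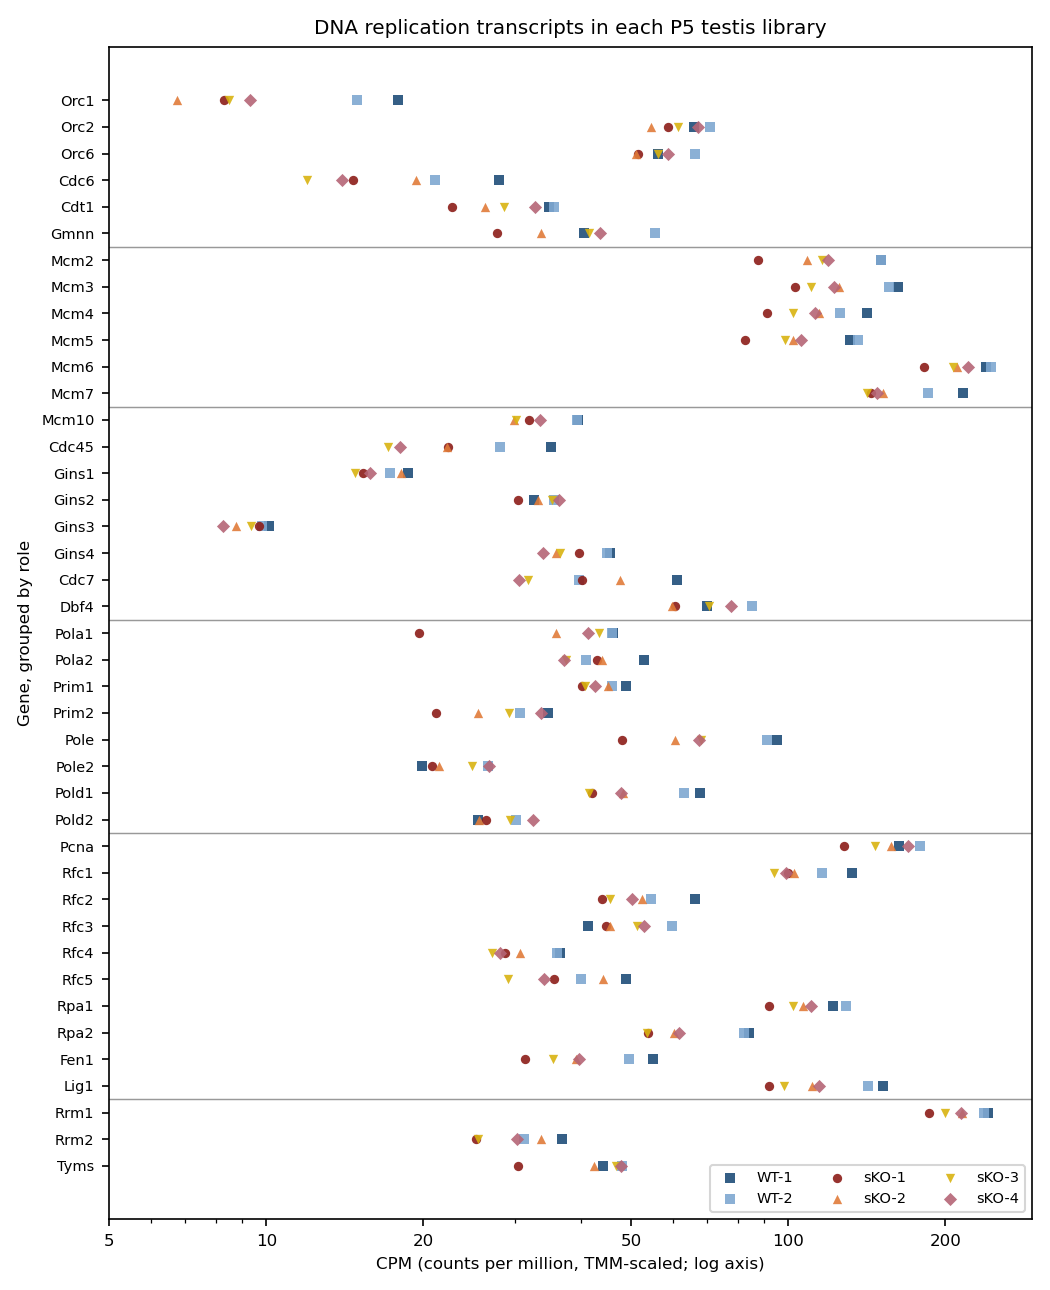
Level of each of the 41 genes in each library, in CPM on a log axis, with genes in rows grouped by role. Squares are the 2 WT libraries and the other marks the 4 sKO libraries; for 25 genes all sKO marks lie left of both squares.

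The 4 members that fell come from different steps of replication. Orc1 (ENSMUSG00000028587) encodes the largest subunit of the origin recognition complex, the ATPase that joins the complex in G1. Its level was 17.9 and 14.9 CPM in WT and 8.31, 6.75, 8.49 and 9.30 CPM in sKO, and every sKO value was below the lower WT value. The log2 fold change was −1.0 (adjusted p = 0.0351, SE 0.18), the largest among the members. Mcm7 (ENSMUSG00000029730), a subunit of the helicase ring, was 216 and 185 CPM in WT and 144, 152, 142 and 148 CPM in sKO. The 2 WT libraries differed from each other by more than the 4 sKO libraries did, and the log2 fold change was −0.45 (adjusted p = 0.0473, SE 0.09). Pold1 (ENSMUSG00000038644) encodes the catalytic subunit of DNA polymerase delta, and its level was 67.8 and 63.2 CPM in WT and 42.03, 48.3, 41.5 and 47.9 CPM in sKO. The log2 fold change was −0.54 (adjusted p = 0.0418, SE 0.10), with no overlap between the groups. Rpa2 (ENSMUSG00000028884) encodes the middle subunit of RPA, which coats single-stranded DNA, and it was 84.2 and 82.3 CPM in WT and 53.8, 60.5, 53.5 and 61.6 CPM in sKO. Its log2 fold change was −0.54 (adjusted p = 0.0350, SE 0.09), and the adjusted p was 0.00273 with the subset term. With limma-voom the Mcm7 call was lost (adjusted p = 0.0524) and the other 3 were kept.

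The RefSeq promoter table (GRCm38.p6, 250 bases before to 50 after each start) held 40 promoters of 33 members. They were searched on both strands for E2F-type letters, which were the form TTCCCGC, the form TTGGCGC, the form TTCGCGC and the form TTGCCGC. These forms can overlap each other. A match was found in 24 of 40 member promoters (60%), against 9.57% of all 32851 promoters of that length. CCAAT stood in 57.5% of member promoters against 37.4% of all, and the letters TTTGAA of the cell cycle element CHR in 20% against 17.9%. A match is a description of letters and not a binding site. The 150 bases before the start are shown for the 4 members that fell, for Mcm6, which has the most matches in this window, and for Pold2, which encodes the partner subunit of Pold1 and had a log2 fold change near 0. Capitals mark the E2F-type letters, on either strand, and each sequence reads 5′ to 3′ on the strand of its gene.
Orc1: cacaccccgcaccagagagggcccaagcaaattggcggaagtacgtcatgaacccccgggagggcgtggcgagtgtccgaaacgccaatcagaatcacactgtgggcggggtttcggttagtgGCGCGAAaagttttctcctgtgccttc
Mcm7: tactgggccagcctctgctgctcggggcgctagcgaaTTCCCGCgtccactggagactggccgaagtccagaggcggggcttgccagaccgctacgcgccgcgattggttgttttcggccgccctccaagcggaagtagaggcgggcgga
Pold1: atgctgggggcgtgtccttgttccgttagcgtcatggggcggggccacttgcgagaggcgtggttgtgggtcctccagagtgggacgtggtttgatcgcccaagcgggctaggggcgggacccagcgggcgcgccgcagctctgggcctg
Rpa2: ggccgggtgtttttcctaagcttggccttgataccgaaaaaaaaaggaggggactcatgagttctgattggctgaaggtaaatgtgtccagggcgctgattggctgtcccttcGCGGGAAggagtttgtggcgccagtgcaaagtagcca
Mcm6: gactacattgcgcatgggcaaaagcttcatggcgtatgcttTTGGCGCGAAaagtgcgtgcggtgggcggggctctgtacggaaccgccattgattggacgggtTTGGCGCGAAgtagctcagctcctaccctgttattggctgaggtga
Pold2: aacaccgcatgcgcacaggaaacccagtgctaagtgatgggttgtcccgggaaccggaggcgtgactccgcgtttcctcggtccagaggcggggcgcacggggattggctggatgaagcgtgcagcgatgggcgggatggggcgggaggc
These windows lie at chr4:108579304-108579453 on the plus strand for Orc1, chr5:138171267-138171416 on the minus strand for the second of the Mcm7 promoters in the table, chr7:44548816-44548965 on the minus strand for Pold1, chr4:132768210-132768359 on the plus strand for Rpa2, chr1:128359706-128359855 on the minus strand for Mcm6 and chr11:5878257-5878406 on the minus strand for the first of the Pold2 promoters. The match begins 27 bases before the start in Orc1, 37 before it in Rpa2 and 113 before it in the Mcm7 promoter shown. The other Mcm7 promoter has matches 165 bases before its start and at bases 18 and 21 from it. These lie outside its window, so the Mcm7 promoter shown is the one with a match in the window. In Pold1 the match lies at base 40 from the start, outside the window shown, and Pold2 has none in either promoter. In Mcm6 the forward TTGGCGC and the reverse of TTCGCGC overlap in each of the capital runs. Across members, the 21 with the letters had a median log2 fold change of −0.39, 4 of them called and 17 with no overlap between groups. The 12 with a promoter but no letters had a median of −0.21, with 0 called and 4 without overlap, and the 8 with no promoter in the table a median of −0.32. Among all genes tested, 2.3% were called lower and 13.3% lay lower in sKO without overlap. The letters did not separate the genes cleanly, since Pole2 carries them and stood at 0.02, while Cdc45 and Mcm2 lack them and stood at −0.67 and −0.48. The difference between these groups was not tested.

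Among the 6 origin recognition and licensing genes, Orc1 was the 1 call, the median was −0.37, and 3 were lower with the subset term (Orc1, Cdc6 and Gmnn). For all genes the shares called lower were 2.3%, and 8.65% with that term. Cdc6, the ATPase that helps the origin complex load MCM, was 27.9 and 21.1 CPM in WT and 14.7, 19.3, 11.96 and 13.98 CPM in sKO, with no overlap and a log2 fold change of −0.71 (adjusted p = 0.176, SE 0.21). With the subset term its adjusted p was 0.00872. Cdt1, which escorts MCM to the origin, was 34.8 and 35.6 CPM in WT and 22.7, 26.2, 28.6 and 32.6 CPM in sKO, all below WT, yet its log2 fold change of −0.35 passed neither test (adjusted p = 0.381, SE 0.15). Its inhibitor Gmnn (geminin) was 40.6 and 55.6 CPM in WT and 27.6, 33.6, 41.5 and 43.6 CPM in sKO; sKO-3 and sKO-4 lay between the 2 WT values, which themselves differed widely. Orc2 was 66.1 and 70.7 CPM in WT and 54.6 to 67.02 CPM in sKO (−0.18, SE 0.10) and Orc6 was 56.4 and 66.2 CPM in WT and 51.04 to 58.8 CPM in sKO (−0.17, SE 0.11), and in both at least 1 sKO library reached the WT values.

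All 6 subunits of the MCM ring were lower in every sKO library than in both WT libraries, and all 6 passed the test with the subset term, while without it Mcm7 alone did. The shares of all genes that were lower in these ways were 13.3%, 8.65% and 2.3% in turn. The summed level of the ring was 1041 and 998 CPM in WT and 689.8, 813, 776 and 828 CPM in sKO, −23.8% in the mean. Mcm3 was 162 and 156 CPM in WT and 103, 125, 110.5 and 122 CPM in sKO, a log2 fold change of −0.47 (adjusted p = 0.0642, SE 0.10). Mcm5 was 131 and 136 CPM in WT and 82.6, 102, 98.6 and 106 CPM in sKO, −0.46 (adjusted p = 0.0933, SE 0.11). Mcm2, the subunit that also binds histones, was 150.4 and 151 CPM in WT and 87.4, 109, 116 and 119 CPM in sKO, −0.48 (adjusted p = 0.128, SE 0.13). In each of the 3 genes sKO-1 was the lowest library and the WT pair lay close together. Mcm4 was 142 and 126 CPM in WT and 90.8 to 114 CPM in sKO (−0.35, SE 0.11). Mcm6, with the most E2F-type letters among the windows shown, had the smallest difference of the ring, with 239 and 245 CPM in WT and 182 to 221 CPM in sKO (−0.24, SE 0.10, adjusted p = 0.346 and 0.0456 with the subset term). The ring subunits assemble in equal number. By the longest annotated coding transcript, which need not be the expressed form, their RNA differed in level per length. In WT it was 67.7 ± 7.38 CPM per kb (SD, n = 2) of longest coding transcript for Mcm7, 55.6 ± 0.917 for Mcm6 and 37.3 ± 3.11 for Mcm4.

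Of the 8 genes that turn the loaded ring into a working helicase, 0 passed edgeR's test, 3 were lower at an unadjusted p under 0.05, DESeq2 called 1 and limma-voom 0. Over all genes, 2.3% were lower in edgeR, 8.91% at that unadjusted p and 3.25% in DESeq2. The median of the 8 was −0.26. Cdc45, a core subunit of the moving helicase, was 35.1 and 28.1 CPM in WT and 22.3, 22.2, 17.1 and 18.03 CPM in sKO, with no overlap and a log2 fold change of −0.67 (adjusted p = 0.102, SE 0.16). Its value was nearly the same in both subsets (−0.68 and −0.68), and its adjusted p was 0.00165 with the subset term and 0.0165 in DESeq2. Mcm10, a factor that helps the helicase start, was 39.6 and 39.4 CPM in WT and 31.9, 29.8, 30.1 and 33.5 CPM in sKO (−0.34, SE 0.10, adjusted p = 0.180). The GINS genes differed among themselves. Gins4 lay below WT in every sKO library (45.6 and 44.9 CPM in WT and 33.9 to 39.7 CPM in sKO; −0.31, SE 0.10), and Gins2 was 32.6 and 35.5 CPM in WT and 30.4 to 36.3 CPM in sKO (−0.01, SE 0.11). Gins1 (−0.17, SE 0.14) overlapped between the groups. Gins3, the least abundant member per length at 3.96 ± 0.0902 CPM per kb in WT, did not overlap, but by a narrow margin (10.1 and 9.80 CPM in WT and 8.26 to 9.69 CPM in sKO; −0.15, SE 0.16). The kinase gene Cdc7 was 61.1 and 39.8 CPM in WT and 40.3, 47.6, 31.7 and 30.4 CPM in sKO; WT-1 stood far above WT-2, which lay below sKO-1 and sKO-2, and the log2 fold change was −0.43 (adjusted p = 0.508, SE 0.23). Its activating subunit Dbf4 was 69.9 and 85.4 CPM in WT and 59.9 to 77.5 CPM in sKO (−0.21, SE 0.14). With the subset term Cdc45, Mcm10, Gins4, Cdc7 and Dbf4 were lower.

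Among the members, the catalytic subunit gene and a smaller subunit gene of polymerases epsilon and delta had different values. The catalytic subunit gene of polymerase epsilon, Pole, was 95.01 and 91.1 CPM in WT and 47.95, 60.6, 68.2 and 67.4 CPM in sKO, well separated, with a log2 fold change of −0.61 (adjusted p = 0.0861, SE 0.14) and an adjusted p of 0.00638 with the subset term. Its partner Pole2 was 19.8 and 26.5 CPM in WT and 20.7, 21.4, 24.8 and 26.8 CPM in sKO, overlapping throughout (0.02, SE 0.17). Pold1 fell, as given above, and its partner Pold2 was 25.4 and 30.1 CPM in WT and 26.3, 25.6, 29.3 and 32.4 CPM in sKO (0.03, SE 0.14). Outside the members, the other small subunit genes were Pold3 (−0.22, SE 0.10, no overlap), Pold4 (0.28, SE 0.26), Pole3 (−0.03, SE 0.13) and Pole4 (−0.07, SE 0.12). Of the 8 genes in this group Pold1 was called, Pole and Pold1 were called with the subset term, and the median was −0.24. Without that term 2.3% of all genes were called lower, and with it 8.65%. In polymerase alpha, the catalytic subunit gene Pola1 was 46.1 and 45.97 CPM in WT and 19.6, 35.8, 43.3 and 41.4 CPM in sKO. That spread came from sKO-1, which was under the other 3 by a wide margin, and the log2 fold change of −0.39 had an SE of 0.28, the largest among the members. It was −0.75 within the subset that holds sKO-1 and −0.13 within the other. Pola2 was 52.8 and 40.96 CPM in WT and 37.2 to 43.9 CPM in sKO (−0.21, SE 0.14). The primase genes Prim1 (48.9 and 45.9 CPM in WT and 40.3 to 45.1 CPM in sKO; −0.17, SE 0.09) and Prim2 (34.6 and 30.6 CPM in WT and 21.2 to 33.6 CPM in sKO; −0.26, SE 0.18) passed no test, and the lowest Prim2 value was again in sKO-1.

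Ratios within a library show the uneven subunits without any scaling between libraries. The pairs were chosen after the values were seen, so the ratios are a description. The log2 ratio of Pole to Pole2 counts was 2.26 and 1.78 in WT and 1.21, 1.501, 1.46 and 1.33 in sKO. That of Pold1 to Pold2 was 1.42 and 1.07 in WT and 0.68, 0.92, 0.50 and 0.57 in sKO. In both pairs every sKO ratio was below both WT ratios, and the same held for Orc1 to Orc2 (−1.88 and −2.25 in WT and −2.83, −3.01, −2.86 and −2.85 in sKO) and for Rpa2 to Rpa1 (−0.53 and −0.65 in WT and −0.77, −0.81, −0.93 and −0.84 in sKO). The ratios of Pola1 to Pola2, Prim1 to Prim2, Mcm7 to Mcm6 and Cdt1 to Gmnn overlapped between the groups. Such a ratio shows unequal change within the pair and not which partner stayed.

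**Figure D2:**
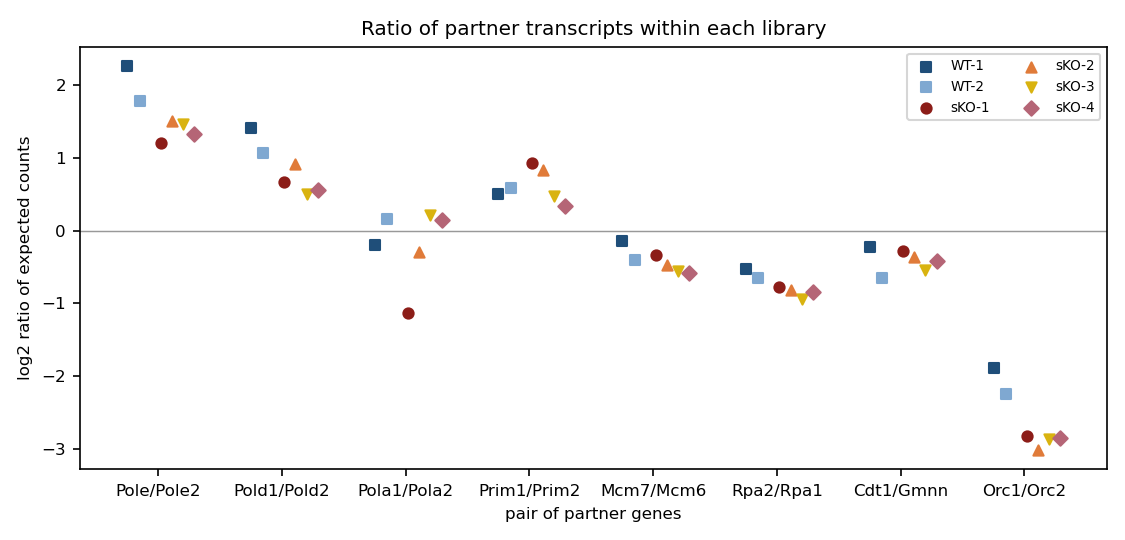
Log2 ratio of expected counts for 8 pairs of partner genes (horizontal axis) in each library. Squares are WT and the other marks sKO; all 4 sKO marks lie below both squares for Pole/Pole2, Pold1/Pold2, Rpa2/Rpa1 and Orc1/Orc2, and the groups overlap in the other 4 pairs.

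Among the 10 genes of the clamp, the clamp loader, RPA and flap processing, Rpa2 was called, 7 were lower with the subset term (Rfc1, Rfc2, Rfc4, Rpa1, Rpa2, Fen1 and Lig1), and the median was −0.33. The same 2 fits called 2.3% and 8.65% of all genes lower. Lig1, the ligase that seals Okazaki fragments, was 152 and 142 CPM in WT and 91.8, 111, 97.9 and 115 CPM in sKO, a log2 fold change of −0.50 (adjusted p = 0.0671, SE 0.11). Fen1, the nuclease that trims the flaps before ligation, was 54.9 and 49.5 CPM in WT and 31.3, 39.1, 35.4 and 39.8 CPM in sKO, −0.52 (adjusted p = 0.0896, SE 0.12). Both genes showed no overlap and the same order of the sKO libraries, sKO-1 lowest and sKO-4 highest. Rfc1, the large subunit of the clamp loader, was 132 and 116 CPM in WT and 99.8, 103, 93.7 and 99.1 CPM in sKO, −0.33 (adjusted p = 0.128, SE 0.09). Of the small clamp loader subunits, Rfc4 (36.6 and 36.00 CPM in WT and 27.03 to 30.6 CPM in sKO; −0.34, SE 0.10) and Rfc2 (66.3 and 54.6 CPM in WT and 43.9 to 52.4 CPM in sKO; −0.33, SE 0.12) did not overlap between groups. Rfc5 (48.9 and 40 CPM in WT and 29.1 to 44.2 CPM in sKO; −0.32, SE 0.17) and Rfc3 (41.4 and 59.9 CPM in WT and 44.7 to 52.9 CPM in sKO; −0.06, SE 0.16) did, and Rfc3 was the member of this group nearest to 0. Rpa1, the large RPA subunit, was 122 and 129 CPM in WT and 91.8 to 111 CPM in sKO (−0.29, SE 0.10), a smaller difference than that of Rpa2. Pcna, the sliding clamp, had the highest level per length of all members, 113 ± 7.48 CPM per kb in WT. Its level in CPM was 163 and 179 CPM in WT and 128, 157, 147 and 169.5 CPM in sKO, with sKO-4 between the 2 WT values, and its log2 fold change of −0.19 passed no test (adjusted p = 0.610, SE 0.12).

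The differences of the 3 deoxynucleotide genes were small. Rrm1, the large subunit of ribonucleotide reductase, was 241 and 237 CPM in WT and 186 to 215 CPM in sKO, without overlap (−0.23, SE 0.09), and it was lower with the subset term (adjusted p = 0.0491). Rrm2, the small subunit that limits the enzyme in S phase, was 36.9 and 31.2 CPM in WT and 25.2 to 33.6 CPM in sKO (−0.25, SE 0.15). Tyms, thymidylate synthase, was 44.2 and 48.00 CPM in WT and 30.3, 42.4, 46.7 and 47.8 CPM in sKO (−0.14, SE 0.18); sKO-1 alone was far below WT. In this group edgeR, DESeq2 and limma-voom each called 0, and 1 was lower at an unadjusted p under 0.05. Over all genes, 2.3% were lower in edgeR, 3.25% in DESeq2 and 8.91% at that unadjusted p.

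**Figure D3:**
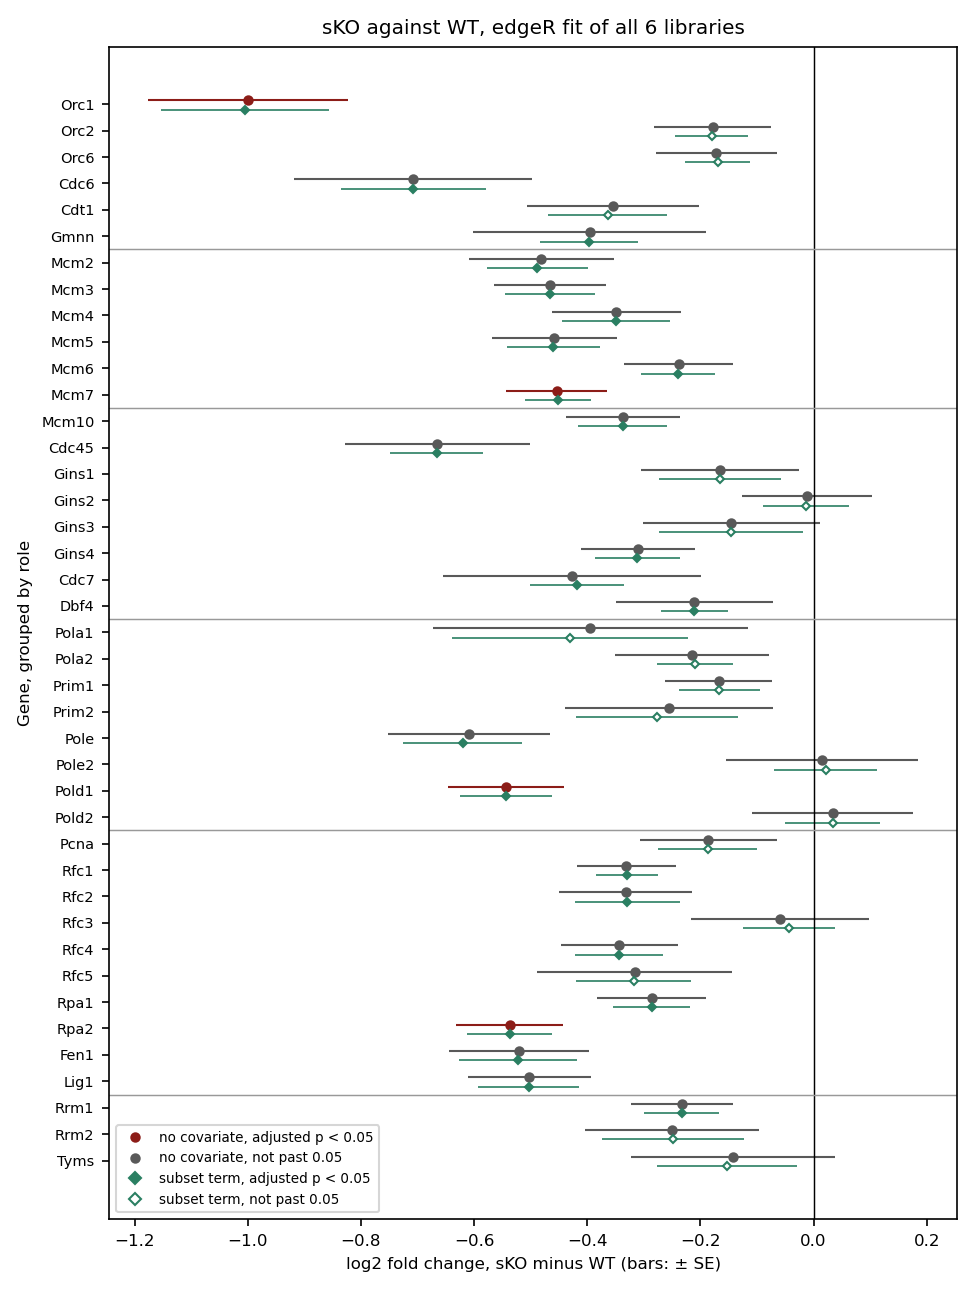
Log2 fold change of sKO against WT with its SE for each of the 41 genes, grouped by role. Circles are the fit without a covariate, dark red for the 4 past an adjusted p of 0.05; diamonds are the fit with the library subset as a term, filled for the 24 past it. The estimates of the 2 fits nearly coincide, and the bars are shorter with the term in most rows.

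The sKO libraries were not alike. sKO-1 was the lowest of the 4 for 22 members and sKO-4 the highest for 21. Relative to the WT mean the median member stood at −0.43 (log2) in sKO-1, against −0.27, −0.31 and −0.24 for the other sKO libraries in order of number. In sKO-1, 36 members lay below the lower WT value, against 32, 34 and 30 for the others. Of the 41, 3 exceeded the higher WT value in sKO-4 and 0 in the other 3 libraries.

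The 4 lists of functionally related genes had negative medians nearer to 0 than that of the members. The lists and the members were chosen with earlier results of these data known, so this contrast is a description. Over all genes tested the median was 0.03, 2.3% were lower and 0.124% higher. Of 38 other replication fork and origin genes tested, 2 were lower and 0 higher, with a median of −0.16. Chtf18, part of an alternative clamp loader that acts in sister chromatid cohesion, was 34.9 and 31.3 CPM in WT and 18.1, 18.2, 16.6 and 15.2 CPM in sKO, −0.96 (adjusted p = 0.0158, SE 0.13). Clspn (claspin), a checkpoint mediator at the fork, was 70.2 and 62.1 CPM in WT and 38.2, 48.9, 43.4 and 43.8 CPM in sKO, −0.60 (adjusted p = 0.0438, SE 0.12). Of 18 other nucleotide synthesis genes 2 were lower and 0 higher, with a median of −0.13. Cad, the enzyme that begins pyrimidine synthesis, was 95.7 and 84.2 CPM in WT and 49.5, 49.9, 53.02 and 59.2 CPM in sKO, −0.77 (adjusted p = 0.0174, SE 0.11). Shmt1, a folate enzyme that serves thymidylate synthesis, was 63.5 and 56.7 CPM in WT and 42.6, 44.02, 38.6 and 41.8 CPM in sKO, −0.53 (adjusted p = 0.0398, SE 0.10). Of 24 mitosis genes 1 was lower and 0 higher, the mitotic cyclin Ccnb1 (−0.53, SE 0.09), with a median of −0.24. Of 16 G1 to S regulators, E2F genes among them, 0 passed in edgeR, DESeq2 or limma-voom, 2 were lower and 1 higher at an unadjusted p under 0.05, and the median was −0.15. The most abundant of them, Ccna2 (178 and 161 CPM in WT and 134 to 182 CPM in sKO; −0.10, SE 0.13) and Cdk2 (135 and 143 CPM in WT and 143 to 161 CPM in sKO; 0.11, SE 0.09), overlapped between groups. The regulators under that unadjusted p were Cdc25a (−0.31, SE 0.10) and Ccne1 (−0.51, SE 0.19), both lower, and Cdkn1a (0.64, SE 0.22), higher. Each was without overlap between groups, and Cdkn1a was low at 3.43 and 3.49 CPM in WT. With 1 library left out, Chtf18 lost its call only without WT-1 (adjusted p = 0.200) and Cad without WT-1, sKO-2 or sKO-3. Ccnb1 kept it only without sKO-4, and Clspn and Shmt1 lost it in all 6 fits. With the subset term 11 of the 38 fork and origin genes, 7 of the 18 nucleotide synthesis genes, 12 of the 24 mitosis genes and 2 of the 16 G1 to S regulators were lower, beside 24 of the 41 members, and 1 nucleotide synthesis gene was higher. In that fit 8.65% of all genes were lower and 4.97% higher. All 4 sKO libraries lay below both WT libraries for 14, 6, 11 and 4 genes of these lists in the same order, against 13.3% of all genes. They lay above both for 1 G1 to S regulator, against 9.79% of all genes. Summed levels of the fork and origin, nucleotide synthesis and mitosis lists were also lower in every sKO library than in both WT libraries.

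**Figure D4:**
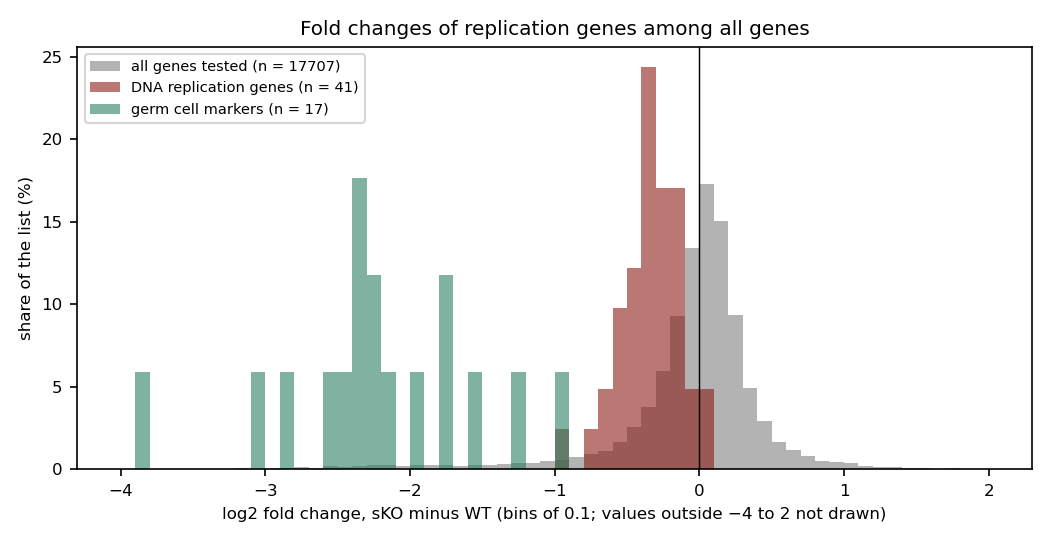
Distribution of log2 fold changes (horizontal axis, bins of 0.1) as a share of each list in percent, for all 17707 genes tested, the 41 replication genes and 17 germ cell markers. The replication genes sit between 0.03 and −1.0, with a median of −0.33 against 0.03 over all genes tested. Within 0.25 of 0 lie 15 of the 41 and 11276 of all genes. The germ cell markers had a median of −2.29 and ran from −3.87 to −0.97, a range that holds the lowest replication gene, Orc1.

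Germ cell markers were also lower in sKO, by far more than the replication genes. The summed level of 17 germ cell markers, among them Ddx4 and Dazl, was 899 and 639 CPM in WT and 200.4, 136, 127 and 205 CPM in sKO. Of the 17, 16 were lower, where 2.3% of all genes tested were lower and 0.124% higher. None of the defining markers was at 0: Ddx4 was 119.7 and 79.1 CPM in WT and 23.4, 14.6, 14.6 and 27.8 CPM in sKO. Within genotypes the germ cell sum and the replication sum had the same order of libraries, apart from sKO-1. Both sums were higher in WT-1 than in WT-2. In sKO both were highest in sKO-4 and higher in sKO-2 than in sKO-3, while sKO-1 had the second highest germ cell sum and the lowest replication sum. Of 9 Sertoli cell markers 0 were lower and 1 higher, Amh at 0.45 (adjusted p = 0.0429, SE 0.09), whose call was lost with any 1 library left out. Cldn11 stood at −0.44 (adjusted p = 0.0714, SE 0.10), with all 4 sKO values below both WT values, and was lower with the subset term (adjusted p = 0.00711) and in DESeq2 (adjusted p = 0.0272). Rhox5, near 1 CPM or below, stood at −0.95 (adjusted p = 0.315, SE 0.37), also without overlap. Cldn11 and Rhox5 were picked out once the values were known. The Sertoli cell sum was 4174 and 4976 CPM in WT and 4662 to 5181 CPM in sKO. Sums ranged as 482 and 697 CPM in WT and 513 to 901 CPM in sKO for 6 Leydig cell markers, 626 and 806 CPM in WT and 498 to 662 CPM in sKO for 5 peritubular myoid markers (1 lower), 5637 and 7336 CPM in WT and 6522 to 8606 CPM in sKO for 6 stromal markers and 206 and 227 CPM in WT and 219 to 281 CPM in sKO for 5 endothelial markers. For 6 macrophage markers the sum was 36.8 and 39.2 CPM in WT and 29.7 to 38.7 CPM in sKO, and for 6 erythroid markers 402 and 401 CPM in WT and 487 to 709 CPM in sKO, highest in sKO-4. The part of any of these cell types in the replication gene levels was not tested.

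**Figure D5:**
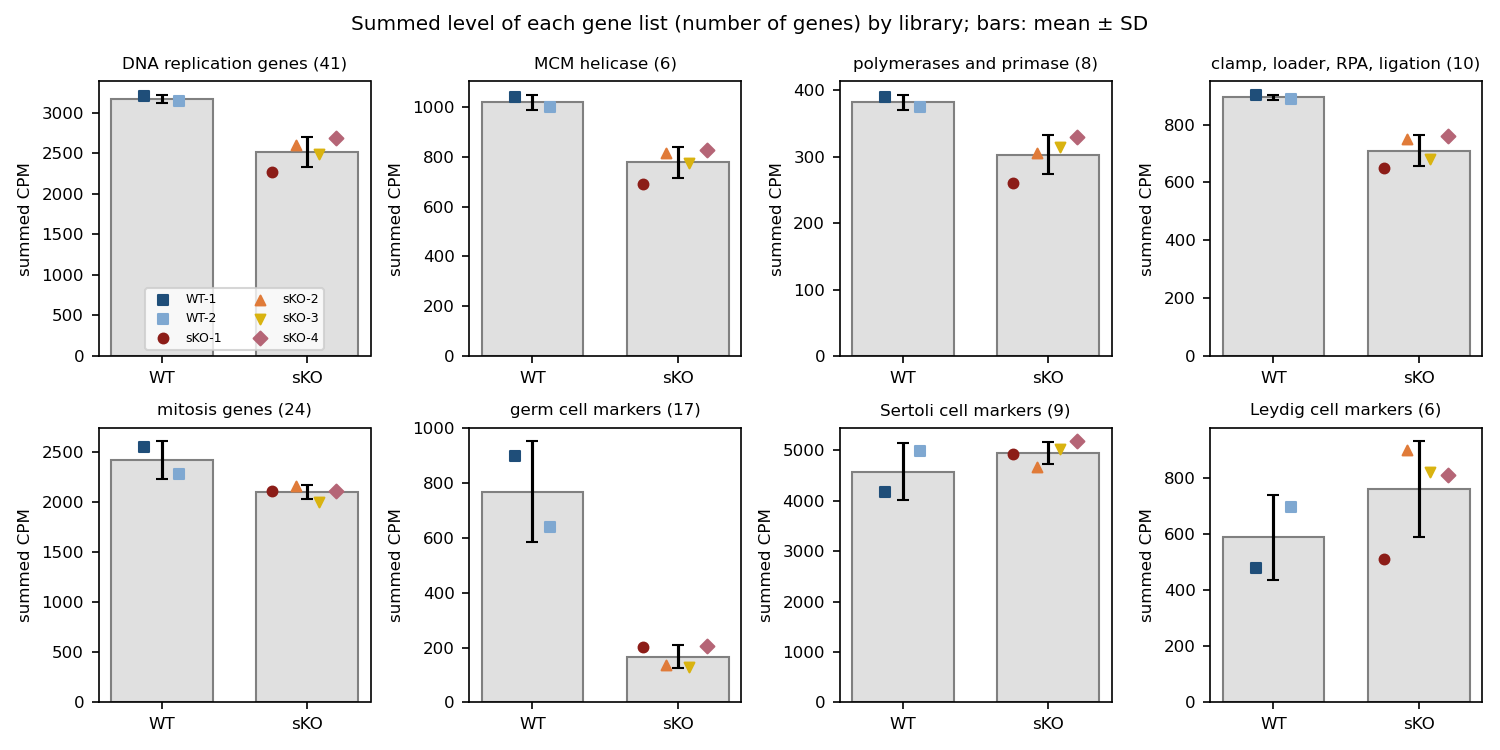
Summed CPM of 8 gene lists by library (points), with bars for the mean of 2 WT and 4 sKO libraries and whiskers for the SD. All sKO points lie below both WT points in the 4 panels of replication genes, the mitosis panel and the germ cell panel. Mean differences are −20.6% to −23.8% in the replication panels and −13.2% for the mitosis genes. The germ cell markers differ by −78.2%, and the Sertoli cell sums overlap.

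Some values carry a limit from counting, since the labels do not say whether strand was used. By the GRCm38 annotation, exons on the opposite strand overlap 78.8% of Fen1 exon bases (Gm10143, 2.94 CPM), 67.3% of Gins2 (Gse1, 12.7 CPM), 29.8% of Orc2 (Nif3l1, 31.1 CPM) and 10.8% of Orc1 (Gm12743, 1.24 CPM). In 4 members the opposite gene was the more abundant: Eif4a2 at 558 CPM over 12.7% of Rfc4 exon bases, Wsb2 at 197 CPM over 10.7% of Rfc5, Vps35 at 139.9 CPM over 6.93% of Orc6 and Ufd1 at 90.5 CPM over 5.96% of Cdc45. Processed pseudogenes close in sequence to Mcm7, Pcna, Cdc6, Rfc5 and Rrm2 held almost no counts, at most 0.0221 CPM. The longest Tyms transcript shares a repeat with many genes, so its level is less certain. On the same strand, the protein-coding gene Gm49384 (4.48 CPM) shares 8.5% of Pole2 exon bases (23.2 CPM). Reads there are ambiguous even where strand is used, so the Pole2 level and its ratio to Pole are also less certain.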

How the data were processed

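The authors deposited 1 table of expected counts per gene for 6 libraries. The submitters' processing notes name fastp, STAR, RSEM, which can split reads among similar genes, and the build mm39. The roles and versions of these tools, the annotation and the strand setting were not stated there. Libraries were grouped by title and genotype label, 2 WT and 4 sKO, although the design text speaks of 3 per group. The chi-square per gene was 6.71 for sKO-1 with sKO-2, 3.97 for sKO-3 with sKO-4 and 19.6 to 23.9 for the other pairs of 1 group. All exceed sampling noise, so no library looked deposited in duplicate and each counted as 1 replicate; this does not show that they are separate animals. Symbols came from GENCODE M21 (GRCm38), which matched 90.5% of identifiers.

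Counts were rounded, filtered with filterByExpr (minimum count 10) and scaled by TMM. The test was edgeR's quasi-likelihood test (edgeR 4.0.16, R 4.3.3), two-sided, without a covariate, with Benjamini-Hochberg adjustment over 17707 genes and a threshold of 0.05. CPM are counts divided by TMM-scaled library size and brought to the usual common total, with a prior count of 2 for log2 CPM. Alternatives used DESeq2 1.42.0 (own filtering), limma-voom (limma 3.58.1), RLE factors, Sertoli marker library sizes, other count filters, left-out libraries, a replicate block and the subset term; each subset alone was added after seeing the data, where the single WT library was assumed to have the spread of the sKO pair. The steps were tested on simulated data. Similar transcripts were sought with BLAST 2.17.0 (at least 95% identity over 200 bases). Libraries held 17.99 to 18.4 M (mega) counts. The SD between libraries was below the counting error of 1 library for 9 of the 41 members in WT and for 1 in sKO, so those SDs understate the error.

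The members and gene lists were chosen with earlier results of these data known. Named were all 41 members, Mdm2, up to 6 called genes of each related list or else its 2 most abundant, and defining cell type markers. Other genes of the related lists were named after their values were seen. Values in every library were given for the 12 members with the smallest adjusted p. They were also given, chosen after their values were seen, for others where the libraries differed. 1 related gene, Chtf8, had 2 identifiers and was left out.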

Additional observations from a re-analysis of the deposited data

How the results depend on the processing

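The sign of the median did not depend on the setting: the median log2 fold change of the members was negative under each of the 16 alternatives. The number of members with a positive value did, from 0 to 4 (without WT-2), against 2 in the main fit. It was 0 with Sertoli library sizes, without WT-1, without sKO-4 and with the replicate block. Under each alternative with both WT libraries, 0 members were called higher. Except with the subset term, few genes of any kind were called higher in these fits, so that count says little. The median moved beyond the spread between libraries with Sertoli library sizes (−0.46, with the median of all genes moved by −0.12) and in library subset 2 alone (−0.24). The number of members called lower also depended on the setting. It was 9 with DESeq2, 2 with Sertoli library sizes, 24 with the subset term, 15 in subset 1 alone and 12 in subset 2 alone, and 0 to 0 with each library left out. Without a filter it was 6, with at least 1 CPM in 4 libraries 4, and with limma-voom or RLE factors 3. Replicate numbers are shared by 4 libraries. Deviations from group means correlated at 0.42 for number 1 and −0.44 for number 2. With 2 WT libraries the deviation of WT-2 is the reverse of that of WT-1, so these values cannot decide whether the numbers mark pairs. With the replicate block 1 member was lower, on fewer libraries. Over all genes, the number lower was 648 of 19909 with DESeq2, 268 with the replicate block, 1531 with the subset term, 946 in subset 1 alone and 1 to 225 with each library left out. The number higher was 81 with DESeq2, 10 with Sertoli library sizes, 880 with the subset term, 282 and 267 in subsets 1 and 2 alone and 2 to 7 with each library left out. Of the 16 alternatives, Orc1 and Rpa2 kept the call under 9, Pold1 under 8 and Mcm7 under 6, with 0 reversed; all 6 left-out libraries ended each call, with fewer samples. Library subsets were defined from the data, so p-values with the subset term may be too small, and 2 WT libraries limit every estimate of spread.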
